A study of Mus musculus with 4 samples.

Results

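S100a8 and S100a9 (the calgranulins) and 7 genes for proteins stored in neutrophil granules, namely Camp, Ngp, Ltf, Lcn2, Elane, Prtn3 and Mpo, were followed through mouse fracture callus by single-cell RNA-Seq. These 9 genes were taken by name from the 32285 genes of the deposited count matrices. They were described in cells with at least 10 S100a8 UMIs (unique molecular identifiers, each standing for 1 captured mRNA molecule), which are called S100a8-high cells here, and as RNA found in all other cells. There were 917 S100a8-high cells among 31617 kept cells. All libraries came from wild-type C57BL/6J mice (males, by the methods for this model), 3 months old, each with a fractured tibia. Control mice received vehicle (PBS), and RA mice received injections of K/BxN serum, which carries arthritogenic autoantibodies and transfers arthritis passively. Callus was scraped from the periosteal surface and digested with collagenase at 4 or 7 days post fracture (dpf), giving the libraries control_4d, control_7d, RA_4d and RA_7d, and any 4 values listed without library names follow this order. By the study's methods the serum injections were repeated during repair. In RA mice the time since the last dose therefore differed between 4 and 7 dpf and cannot be told apart from dpf. Each condition was 1 library made from pooled calluses (4 in the deposited description, 3 in the study's methods), so no comparison between conditions has a replicate check and none was tested. Ranges in parentheses are exact 95% intervals that cover counting error only.

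Neutrophils fill their granules in sequence as they mature in the marrow. Promyelocytes make the primary (azurophil) granule proteins, the myelocytes that follow them make the secondary (specific) granule proteins, and the S100a8 and S100a9 mRNAs remain abundant into the mature cell. S100A8 and S100A9 pair as calprotectin, which binds calcium and zinc, signals through TLR4 when released, and is a common readout of inflammation in arthritic joints and in wounds.

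The 2 calgranulin genes, S100a8 (ENSMUSG00000056054) and S100a9 (ENSMUSG00000056071), lie 22596 bases apart on chromosome 3 and are read from opposite strands (S100a8 at chr3:90668978-90670035 on the plus strand, S100a9 at chr3:90692632-90695721 on the minus strand, mm10). Prtn3 and Elane, both serine proteases, sit 3072 bases apart on the plus strand of chromosome 10. Camp, Ngp and Ltf share chromosome 9, with 570129 bases between Camp and Ngp and 596258 between Ngp and Ltf. The 250 bases before each RefSeq start (build GRCm38.p6) were searched on both strands for 3 short motifs: GAGGAA, a letter string that PU.1 is known to bind, TTNCNNAA, a loose C/EBP-type string, and TATAAA, the TATA box string. The PU.1 string was found in 6 of the 9 member promoters (S100a8, Ltf, Lcn2, Elane, Prtn3 and Mpo) and in 23.3% of all 32851 promoters. TTNCNNAA was found in 5 of 9 (S100a8, S100a9, Ngp, Ltf and Lcn2) and in 36.8% of all promoters, and TATAAA in S100a8 alone and in 12.4% of all. By the annotation of the files, some of these windows reach into exons (197 of 250 bases for Lcn2 and 203 for Mpo), and both Lcn2 matches and the TATAAA match of S100a8 lie in exons. The stretches printed here do not. These stretches, 5′ to 3′ on the strand of the gene, show that all 3 primary granule genes carry GAGGAA and that S100a8, S100a9 and Ngp carry TTNCNNAA, with the match in capitals. The match in S100a8 reads on the opposite strand, and a match is a run of letters, not a binding site shown by data.
Elane, chr10:79886207-79886246, plus strand: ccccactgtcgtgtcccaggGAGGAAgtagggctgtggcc
Prtn3, chr10:79879552-79879597, plus strand: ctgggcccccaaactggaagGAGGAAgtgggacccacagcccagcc
Mpo, chr11:87793540-87793580, plus strand: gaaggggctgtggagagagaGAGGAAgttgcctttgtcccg
S100a8, chr3:90668934-90668977, plus strand: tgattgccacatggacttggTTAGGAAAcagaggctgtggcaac
S100a9, chr3:90695824-90695871, minus strand: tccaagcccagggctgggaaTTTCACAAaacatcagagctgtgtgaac
Ngp, chr9:110419650-110419697, plus strand: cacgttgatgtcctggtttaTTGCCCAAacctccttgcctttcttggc

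The libraries held 5559 to 9579 kept cells with median UMIs of 15102 to 17234 per cell, and any pair of libraries shared 10 to 31 barcodes (0.1696% to 0.424% of the smaller library). RA_4d stood apart in haemoglobin RNA. Levels are given in CPM, the UMIs of a gene scaled to the total UMIs of the same cells, so that 10000 CPM is 1% of the UMIs. In mesenchymal-like cells, which make no haemoglobin, Hba-a1 was at 92.8 CPM in control_4d, 86.3 in control_7d and 114 in RA_7d but at 0.791 in RA_4d. The plasma cell gene Jchain did not stand apart in these cells (0.152 CPM in RA_4d, 0.113 to 0.219 in the others), and the immunoglobulin gene Igkc was at 1.02, 0.274, 1.34 and 0.235. B-like cells were 1.37% of kept cells in control_4d and 0.482% in control_7d, against 1.83% in RA_4d and 0.240% in RA_7d, and all haematopoietic clusters together were 55.3%, 36.4%, 56.5% and 23.3%. The part of these differences in the results that follow was not tested, and with 1 library per condition no result can be given without RA_4d.

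S100a8-high cells were most frequent in RA callus at 4 dpf and least frequent in RA callus at 7 dpf. They were 144 of 7135 kept cells in control_4d (2.02%, 1.70 to 2.37) and 235 of 9344 in control_7d (2.51%, 2.21 to 2.85), compared with 442 of 5559 in RA_4d (7.95%, 7.25 to 8.69) and 96 of 9579 in RA_7d (1.00%, 0.813 to 1.22). The RA share was 3.94 times the control share at 4 dpf (3.26 to 4.79) and 0.398 times the control share at 7 dpf (0.311 to 0.507). Between 4 and 7 dpf the share went from 7.95% to 1.00% in RA callus, a ratio of 0.126 (0.10 to 0.157), whereas in control callus the ratio of 7 to 4 dpf was 1.25 (1.01 to 1.54). Under the stricter cell filter of the study (4000 to 50000 UMIs and 2000 to 7000 genes), which kept 39.6%, 51.1%, 60.0% and 67.7% of the S100a8-high cells of control_4d, control_7d, RA_4d and RA_7d, the ratio at 4 dpf was 6.19 (4.63 to 8.39). Taken over haematopoietic cells alone, the 7 dpf ratio was 0.548 (0.410 to 0.726). The plot of shares and clusters sets these 4 libraries side by side.

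**Figure D1:**
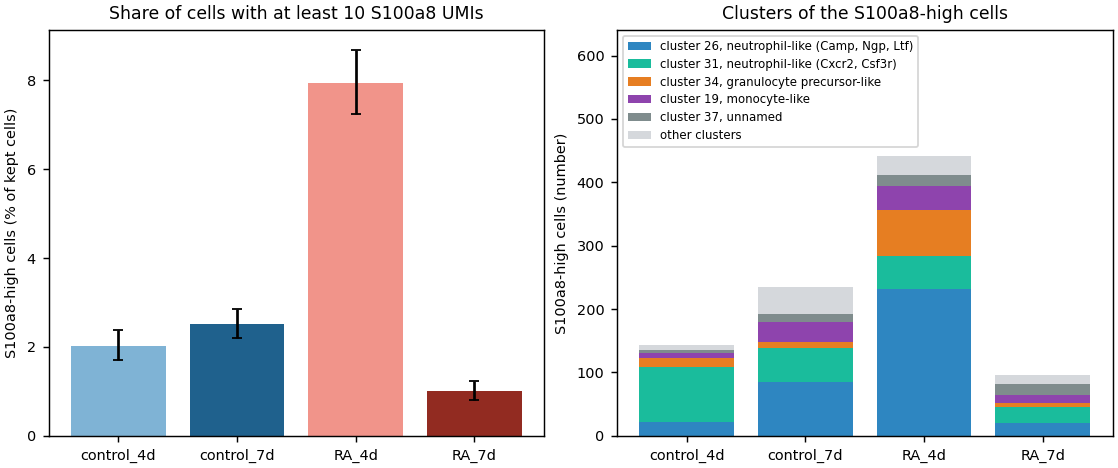
Left, S100a8-high cells as a percentage of kept cells in each library, with exact 95% intervals for counting error. Right, the number of S100a8-high cells in each library, coloured by the cluster that holds them. RA_4d has the tallest bar on both sides (442 cells, 7.95%), and its cells lie mostly in cluster 26, whereas in control_4d cluster 31 holds the most (88 of 144).

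The amount of S100a8 in a cell ranged from 0 to 17343 UMIs. Of all kept cells, 24902 had no S100a8 UMI, 5655 had 1 to 4, 143 had 5 to 9, 78 had 10 to 19, 167 had 20 to 99, 326 had 100 or more but under 1000, and 346 had 1000 or more. Just inside the threshold, the cells with 10 to 19 UMIs had a median of 4 S100a9 UMIs, and 20 of them were neutrophil-like or precursor-like and 22 monocyte-like. Just outside it, the cells with 5 to 9 UMIs had a median of 1 S100a9 UMI, and 11 were neutrophil-like or precursor-like and 17 monocyte-like. The median S100a8-high cell held 136.5 S100a8 UMIs in control_4d and 413 in control_7d, against 943.5 in RA_4d and 227 in RA_7d. Its total depth also differed, with medians of 4180.5, 10015, 19777 and 15130.5 UMIs against 17155, 15243, 17117 and 15878 in the other cells of the same libraries. The highest single cell, in RA_4d, held 17343 S100a8 and 18832 S100a9 UMIs out of 132323.

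The label of these cells as granulocytes was checked against markers. All 8 neutrophil markers (Csf3r, Cxcr2, Retnlg, Mmp8, Mmp9, Ly6g, Wfdc21 and Il1r2) had a higher level in S100a8-high cells than in the other cells of each library. Ly6g, a surface protein of mouse neutrophils, was at 52.6 to 93.4 CPM against 0 to 0.0592. Of the monocyte markers, Ly6c2 (583 to 877 against 12.2 to 46.5) and Plac8 (590 to 1112 against 98.2 to 176) were also higher in each library. Ccr2 was higher in all but control_4d, and Vcan was lower in each. By clusters formed without the 9 members, 577 of the 917 cells were neutrophil-like, 101 granulocyte precursor-like, 92 monocyte-like, 30 mesenchymal-like and 24 macrophage-like, and 50 fell in cluster 37, which was left unnamed because 60.5% of its cells were called doublets. RNA of other cells was present in them as well. Col1a1, which encodes a chain of type I collagen, was at 398, 3373, 914 and 2450 CPM in the S100a8-high cells of control_4d, control_7d, RA_4d and RA_7d, against 4650 to 10746 in the other cells. Of the 4 endothelial markers (Pecam1, Cdh5, Kdr and Vwf), all were higher in the S100a8-high cells than in the other cells of RA_7d (Cdh5 at 245 against 117 CPM and Vwf at 117 against 50.6), and Pecam1, Cdh5 and Vwf in control_7d (Cdh5 at 148 against 98.9). In control_4d and RA_4d all 4 were lower. The part of this RNA in the results was not tested.

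In the sum of all kept cells, every one of the 9 genes had its highest level in RA_4d. S100a8 was at 481 CPM in control_4d and 1044 in control_7d, against 6588 in RA_4d and 438 in RA_7d. S100a9, its partner, followed it closely at 468, 1019, 6222 and 445. RA callus thus stood at 13.7 (S100a8) and 13.3 (S100a9) times control callus at 4 dpf, and at 0.420 and 0.437 times control callus at 7 dpf.

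Among the secondary granule genes, Camp, the precursor of the antimicrobial peptide CRAMP, was at 77.0 CPM in control_4d and 169 in control_7d, against 1777 in RA_4d and 112 in RA_7d. Ngp, a cystatin-like granule protein, was at 62.0, 126, 1150 and 76.5, and Ltf, which encodes the iron-binding lactoferrin, at 15.2, 35.6, 229 and 17.8. Lcn2, which encodes the siderophore-binding lipocalin 2, was at 40.4, 68.8, 477 and 37.7. All 4 were thus lower in RA than in control callus at 7 dpf and many times higher at 4 dpf, where the ratios were 23.1 (Camp), 18.5 (Ngp), 15.01 (Ltf) and 11.8 (Lcn2). The ratios at 7 dpf were 0.661, 0.607, 0.499 and 0.549.

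The primary granule genes had a different order of libraries, with control_7d lowest. Elane, neutrophil elastase, was at 20.3 CPM in control_4d and 5.49 in control_7d, against 188 in RA_4d and 9.28 in RA_7d. Prtn3, proteinase 3, was at 35.2, 10.0, 229 and 15.7, and Mpo, myeloperoxidase, at 12.6, 2.46, 112 and 5.16. RA stood above control at both times for all 3, by 9.27 (Elane), 6.501 (Prtn3) and 8.86 (Mpo) at 4 dpf and by 1.69, 1.57 and 2.09 at 7 dpf. Most of the Elane UMIs of RA_7d lay in 6 granulocyte precursor-like cells, so the 7 dpf ratio of Elane rests on few cells.

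Counting genes past 2-fold on a log2 scale with a pseudocount of 1 CPM, all 9 members were at least 2-fold higher in RA_4d than in control_4d, where 0.698% of the 18900 genes compared were, and 0 were lower (0.291% of genes were). Their median log2 ratio was 3.73 against 0.02 for all genes. At 7 dpf 0 members were 2-fold higher (1.44% of genes were) and 2, S100a8 and S100a9, were 2-fold lower (0.558% of genes were), with a median log2 ratio of -0.71 against 0.00. With the pseudocount, Ltf and Mpo at 7 dpf stayed inside 2-fold.

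Over time the 2 conditions went different ways, in comparisons that share their libraries with those above. From 4 to 7 dpf in control callus, 5 members were at least 2-fold higher (S100a8, S100a9, Camp, Ngp and Ltf, at 2.03 to 2.34 times, where 1.52% of genes were) and 3 were 2-fold lower (Elane, Prtn3 and Mpo, at 0.195 to 0.285 times, where 0.369% of genes were). In RA callus 0 members were 2-fold higher (4.09% of genes were) and all 9 were 2-fold lower (3.52% of genes were). Within the S100a8-high cells described next, Elane, Prtn3 and Mpo were the 3 members 2-fold lower at 7 than at 4 dpf in control callus (2.09% of genes were) and also in RA callus (1.94% of genes were), and 0 were higher (7.53% and 10.9% of genes were). In the other cells, Lcn2 and Mpo were 2-fold lower at 7 dpf in control callus (0.411% of genes were) and 7 members in RA callus (2.78% of genes were), and 0 were higher (1.51% and 3.57% of genes were).

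Genes with related roles were taken as lists. Of 8 other primary granule and promyelocyte genes, 4 were 2-fold higher in RA_4d than in control_4d, where 0.698% of all genes were (Ctsg, Ms4a3, Prss57 and Fcnb) with a list median log2 ratio of 1.40. Of 15 further secondary and tertiary granule genes, 8 were higher (Itgb2l, Cd177, Chil3, Mmp8, Olfm4, Wfdc21, Hp and Pglyrp1) with a median of 1.77. Of 12 genes of the mature neutrophil, 5 were higher (Cxcr2, Retnlg, G0s2, Ly6g and Stfa2l1), and none of the 3 lists had a member 2-fold lower. At 7 dpf 5 of the secondary and tertiary list (Cd177, Mmp8, Mmp9, Wfdc21 and Adam8) and 3 of the mature list (Retnlg, Clec4d and Stfa2l1) were 2-fold lower in RA callus (0.558% of all genes were), and Ctsg alone of the primary list was 2-fold higher (1.44% of all genes were). Mmp9, a gelatinase of tertiary granules that osteoclasts also make, was at 127 CPM in control_7d and 13.3 in RA_7d. In the cells under 10 S100a8 UMIs it was at 119 and 12.0. Mmp9, Adam8 and Clec4d were also 2-fold lower in RA callus at 7 dpf in those cells (0.509% of all genes were).

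Of 14 other S100 genes, 12 had enough UMIs to compare at each time. At 4 and at 7 dpf 0 of the 12 were past 2-fold in either direction between RA and control callus. Over all genes 0.698% were higher and 0.291% lower at 4 dpf, and 1.44% and 0.558% at 7 dpf. A count of 0 among 12 is near those shares and does not set this family apart. S100a6, the most abundant of them, was at 3442 CPM in control_4d and 3345 in control_7d, against 2789 in RA_4d and 3047 in RA_7d. S100a4, made by fibroblasts and macrophages, was at 1483, 1065, 1314 and 746. In control callus at both times, and in RA callus at 7 dpf, S100a6 thus exceeded S100a8, and in RA_4d S100a8 exceeded S100a6. These levels are UMI counts from the 3′ end of mRNA, which do not scale with gene length.

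Genes for receptors and inhibitors of the members were taken in the same way. Among 12 receptors and binding partners, 2 were 2-fold higher in RA_4d, where 0.698% of all genes were. They were the formyl peptide receptors Fpr1 (6.38 against 1.87 CPM) and Fpr2 (10.9 against 3.32). Within the S100a8-high cells 0 of 10 were 2-fold higher (2.33% of genes were) and 2, Cd14 and Cd36, were lower (5.18% of genes were). In cells under the threshold 0 of 12 were past 2-fold, near the shares of all genes (0.352% higher and 0.256% lower). At 7 dpf 0 of 11 were past 2-fold in all kept cells, near the shares of all genes (1.44% higher and 0.558% lower). Tlr4, a receptor for S100A8 and S100A9, was at 31.7 in control_4d and 25.7 in control_7d, against 28.5 in RA_4d and 33.4 in RA_7d. Of 5 antiproteases compared, Slpi, which inhibits elastase, was the 1 that was 2-fold higher in RA_4d (0.698% of genes were), at 31.7 CPM in control_4d and 84.3 in RA_4d. At 7 dpf Serpina3n, a serine protease inhibitor, was at 23.8 CPM in control_7d and 101 in RA_7d, and A2m, a broad protease inhibitor, at 0.354 and 1.89, both 2-fold higher (1.44% of genes were), at ratios of 4.24 and 5.36. Of 8 transcription factors 3 were 2-fold higher in RA_4d (0.698% of genes were) and 0 lower. They were Cebpe and Gfi1, both needed for granulocyte maturation, and Myb, a factor of progenitor cells. Cebpe was at 2.34, 3.17, 24.6 and 1.72 in control_4d, control_7d, RA_4d and RA_7d.

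Within the S100a8-high cells the RA to control ratios at 4 dpf were smaller than in all kept cells for each of the 9 members. At 7 dpf they were larger for each of the 9 members. S100a8-high cells held 1.15% of all UMIs in control_4d and 8.71% in RA_4d, but 2.15% in control_7d and 0.954% in RA_7d. For genes held mostly by these cells, both directions follow from these UMI shares and are not results about the members. At 7 dpf Camp (1.49 against 0.661), Ngp (1.36 against 0.607), Ltf (1.12 against 0.499) and Lcn2 (1.15 against 0.549) stood above 1 rather than below it. The doublet-rich cluster 37 held 16 of the 96 S100a8-high cells of RA_7d (16.7%) and 12 of 235 in control_7d (5.11%). The 7 dpf ratios of Ngp, Ltf and Lcn2 fell below 1 under some of the alternatives given in the closing section. S100a8 itself, by which the S100a8-high cells were chosen, was at 41220 CPM of these cells' RNA in control_4d and 48058 in control_7d, against 75220 in RA_4d and 45373 in RA_7d. S100a9 was at 40338, 46953, 71057 and 46189. The pair ranked first and second of all genes in these cells in every library. Camp (6628, 7787, 20301 and 11602), Ngp (5346, 5810, 13145 and 7920), Ltf (1304, 1635, 2612 and 1828) and Lcn2 (2415, 3054, 5384 and 3519) were all highest in RA_4d, followed by RA_7d.

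At 4 dpf 4 members were at least 2-fold higher in the S100a8-high cells of RA than of control callus, namely Camp (3.06 times), Ngp (2.46), Lcn2 (2.23) and Ltf (2.00), where 2.33% of the 10612 genes compared were, and 0 were lower (5.18% of genes were). In these cells 247 genes were 2-fold higher and 550 lower, and the median log2 ratio was -0.13 over all genes and 0.87 over the members. With TMM scaling, whose log2 factor between RA and control was -0.23 in these cells, the split was 415 higher and 334 lower and 6 members passed 2-fold, S100a8 and S100a9 among them. Under the study's cell filter only Camp passed (2.11 times). Elane, Prtn3 and Mpo were at 1.18, 1.01 and 1.41 times the control level.

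At 7 dpf the S100a8-high cells differed in the primary granule genes instead. Elane was at 241 CPM in control_7d and 925 in RA_7d (3.83 times), Prtn3 at 241 and 962 (4.00 times), and Mpo at 61.3 and 436 (7.11 times). These 3 members were past 2-fold, where 1.88% of the 9073 genes compared were higher, 0 were 2-fold lower (2.62% of genes were), and the 6 others were at 0.944 (S100a8) to 1.49 (Camp) times control. Of the list of other primary granule genes, 4 of 8 were also 2-fold higher (Ctsg, Ms4a3, Prss57 and Fcnb), with Ctsg, cathepsin G, at 30.2 CPM in control_7d and 411 in RA_7d. In RA_7d 6 cells of cluster 34 carried most of these UMIs, with 1370 of the 1599 Elane UMIs.

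Separating the S100a8-high cells by cluster showed which cells carried each group of genes. Cluster 26, neutrophil-like and led by Camp, Ngp and Ltf, had the highest calgranulin and secondary granule levels and held 21, 85, 231 and 20 S100a8-high cells in control_4d, control_7d, RA_4d and RA_7d. Its S100a8 level was 128604, 124781, 121120 and 98298 CPM, so that S100a8 made up 9.83% to 12.9% of the UMIs of these cells. Cluster 31, neutrophil-like and led by Csf3r, Cxcr2 and Retnlg, had shallow cells (median 3381 UMIs) and held 88, 54, 52 and 26 cells. Cluster 34, granulocyte precursor-like and led by Ctsg and Elane, had deep cells (median 27103 UMIs) and held 13, 9, 73 and 6. The leading genes include members although the members were left out of the clustering.

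In cluster 26 the RA to control ratios of the calgranulins and secondary granule genes lay between 0.785 and 1.42. At 4 dpf the RA to control ratio was 0.942 for S100a8, 0.899 for S100a9, 1.39 for Camp, 1.06 for Ngp, 0.785 for Ltf and 1.07 for Lcn2. At 7 dpf it was 0.788, 0.817, 1.42, 1.20, 0.908 and 1.02. The primary granule genes differed more in this cluster, with Elane at 31.4 CPM in control_4d and 479 in control_7d, against 899 in RA_4d and 82.9 in RA_7d, and with Mpo at 2.85, 107, 342 and 2.30. The order of these summed levels in cluster 26 was thus RA above control at 4 dpf and below it at 7 dpf, with only 21 and 20 cells behind control_4d and RA_7d and a single Mpo UMI in each. Few cells of control_7d set the 7 dpf order. At least 10 UMIs of Elane, Prtn3 and Mpo together were found in 6 of its 85 cells (7.06%, 2.63 to 14.7). In RA_7d 3 of 20 cells had as many (15%, 3.21 to 37.9), so by cell the order at 7 dpf was not RA below control.

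Cluster 31 kept the calgranulins but little granule mRNA. S100a8 was at 37187 CPM in control_4d and 56470 in control_7d, against 54640 in RA_4d and 67354 in RA_7d, whereas Camp was at 18.5, 267, 271 and 71.0. Elane had 0 UMIs in the cells of 3 libraries and 1 UMI in RA_4d, and Mpo had 0, 0, 2 and 0 UMIs. Lcn2 was intermediate, at 563, 1117, 1670 and 1811. In cluster 34 the primary granule genes were at their highest, with Elane at 6765, 1555, 6344 and 8825 CPM, Prtn3 at 8455, 1595, 6791 and 9050, and Mpo at 2881, 442, 3430 and 3942, control_7d being the low library for all 3. S100a8 in cluster 34 was at 17943, 29540, 23954 and 18455. The plot of member levels by cluster shows the 3 profiles.

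**Figure D2:**
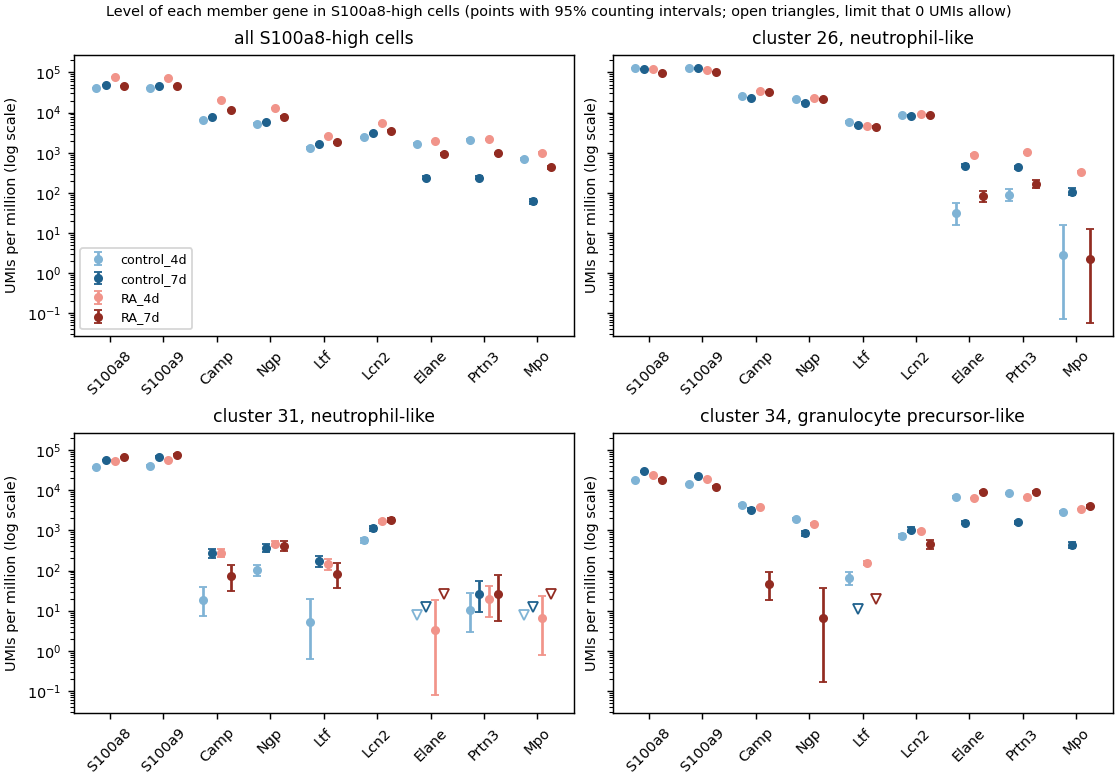
Level of each member (CPM, log scale) in all S100a8-high cells and in those of clusters 26, 31 and 34, with exact 95% counting intervals and open triangles at the limit that 0 UMIs allow (3 counts). Secondary granule genes are high in cluster 26, primary granule genes in cluster 34, and cluster 31 keeps S100a8 and S100a9 at 37187 CPM or more with few UMIs of Elane and Mpo.

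Counted by cell, 48.4% of the 917 S100a8-high cells had at least 10 UMIs of Camp, Ngp and Ltf together, 18.4% had at least 10 of Elane, Prtn3 and Mpo together, 11.01% had both and 44.2% had neither. The share with secondary granule mRNA was 21.5% in control_4d (15.1 to 29.1), 40.9% in control_7d (34.5 to 47.4), 64.7% in RA_4d (60.1 to 69.2) and 32.3% in RA_7d (23.1 to 42.6). The share with primary granule mRNA was 11.1%, 5.53%, 29.0% and 12.5%, and the share with neither was 70.8%, 57.0%, 25.1% and 60.4%. RA_4d thus had the largest share of cells with both kinds of granule mRNA and control_4d the largest share with neither. The cells differed in depth along the same line, since cells with neither had a median of 3328 UMIs in control_4d and 10686 in RA_4d, and the part of depth in these shares was not tested. By cluster, 342 of 357 cells of cluster 26 passed the secondary threshold and 62 the primary one, 8 and 0 of 220 cells did so in cluster 31 (0 of 220 allows up to 1.66%), and 36 and 90 of 101 did so in cluster 34.

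**Figure D3:**
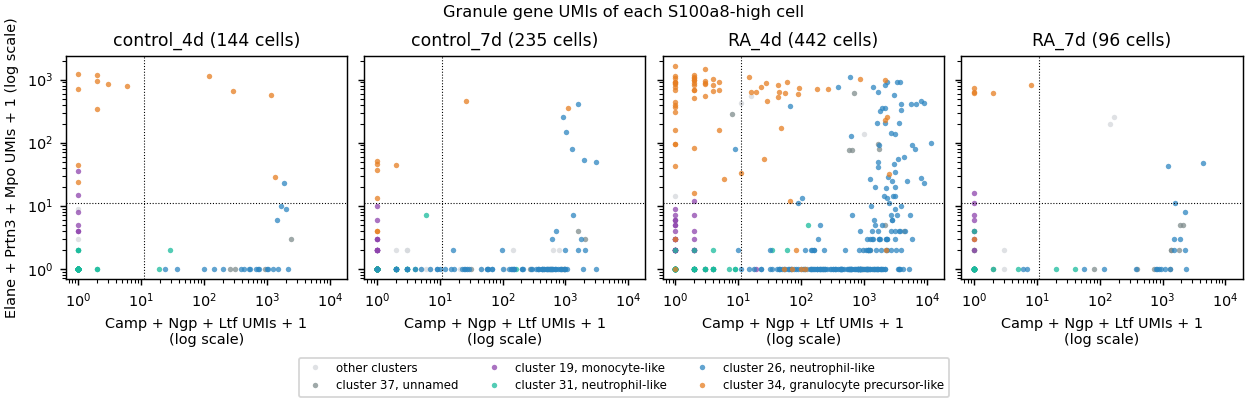
Each point is 1 S100a8-high cell, placed by its UMIs of Camp, Ngp and Ltf (x) and of Elane, Prtn3 and Mpo (y), both plus 1 on log scales, and coloured by cluster. Dotted lines mark the threshold of 10 UMIs. RA_4d has the most cells at or above the primary threshold (128 of 442), whereas most cells of control_4d (102 of 144) lie below both lines.

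Genes of the other lists also differed in the S100a8-high cells, and a link to these granule stages was not tested. Between control_4d and RA_4d, 7 of 12 mature neutrophil genes were 2-fold lower (Csf3r, Cxcr2, Il1r2, Il1b, Cxcl2, Ccl3 and Clec4d), as were 5.18% of all genes, and 0 higher, with a list median log2 ratio of -1.48. Csf3r, the G-CSF receptor, was at 312 CPM in control_4d and 147 in control_7d, against 100 in RA_4d and 164 in RA_7d. Cxcl2, a neutrophil-attracting chemokine, was at 1801 in control_4d and 143 in RA_4d. Against 2.33% of all genes, 4 of 15 of the secondary and tertiary list were 2-fold higher (Cd177, Chil3, Wfdc21 and Pglyrp1), and of the transcription factors 2 of 8 were, Cebpe at 133 and 274 and Gfi1 at 8.86 and 25.5 CPM. At 7 dpf 2 mature genes were 2-fold lower in RA callus, as were 2.62% of all genes, Retnlg at 2635 and 1228 and Stfa2l1 at 137 and 60.8. So were 2 of 15 of the secondary and tertiary list, Mmp8 at 329 and 152 and Mmp9 at 466 and 146. Osteoclasts also make Mmp9. In the S100a8-high cells of control_7d, the osteoclast markers Ctsk, Acp5, Atp6v0d2 and Ocstamp were at 443, 184, 50.9 and 18.8 CPM. The other cells of control_7d had 421, 170, 35.1 and 7.21, and the S100a8-high cells of RA_7d had 61.3, 16.2, 6.94 and 1.16. The part of osteoclast RNA in the Mmp9 difference was not tested.

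Genes with the most similar pattern were sought over 146 sums of a cluster in a library, by Pearson's r of log2 levels. Wfdc21 was closest to S100a8 (r = 0.94), followed by Trem3 and F630028O10Rik. Abca13, Cebpe and Itgb2l were closest to Ngp (0.94, 0.93 and 0.91), and Prss57, Ms4a3 and Ctsg to Elane (0.92, 0.92 and 0.87). The sums share libraries, depth and clusters, so these values are descriptions.

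S100a8 and S100a9 were present in nearly equal numbers of UMIs in neutrophil-like cells, with more S100a8 than S100a9 in the precursor-like and monocyte-like clusters. Since S100a8 chose the S100a8-high cells, the ratio is given over all cells of a cluster, whatever their S100a8 count, a choice made after seeing the data. In cluster 26, S100a8 UMIs per S100a9 UMI were 0.994, 0.993, 1.04 and 0.958, and in cluster 31 they were 0.909, 0.823, 0.978 and 0.884. In the precursor-like cluster 34 they were 1.25, 1.33, 1.26 and 1.496. In the monocyte-like cluster 19, led by Ly6c2 and Ccr2, they were 2.24, 1.75, 2.35 and 3.84. Over the S100a8-high cells alone, clusters 34 (1.25, 1.33, 1.26 and 1.49) and 19 (2.23, 1.75, 2.38 and 3.95) had values near these.

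The sums of cluster 34 give most weight to the cells richest in both mRNAs. Over its S100a8-high cells, the median share of a cell's UMIs was 0.937%, 2.71%, 1.79% and 0.582% for S100a8 and 0.112%, 1.62%, 0.771% and 0.0353% for S100a9. Without the cell with the most S100a8 in each library, an alternative also chosen after seeing the data, the summed ratio was 1.35, 1.30, 1.27 and 9.38, the last from 5 cells of RA_7d with 722 S100a8 and 77 S100a9 UMIs.

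In the monocyte-like S100a8-high cells of cluster 19 (8, 32, 39 and 13 cells), the S100a8 level was 9112, 19642, 12770 and 5242 CPM and the S100a9 level 4080, 11256, 5376 and 1328. In macrophage-like cells below the threshold the ratio was 4.41 in control_4d (3.74 to 5.22), 1.66 in control_7d, 1.25 in RA_4d and 1.98 in RA_7d. Cluster 2, the macrophage-like cells led by Arg1, Mmp12 and Spp1, had 7.77 (6.10 to 10.0), 3.33 (2.64 to 4.24), 1.68 (1.44 to 1.95) and 4.24 (3.14 to 5.82), all above the ratio in cluster 26 of the same library. The ratio in mesenchymal-like cells was 0.820, 0.905, 1.07 and 0.869.

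Most secondary granule mRNA lay in the S100a8-high cells, which held 1.15%, 2.15%, 8.71% and 0.954% of all UMIs in control_4d, control_7d, RA_4d and RA_7d. Their share of S100a8, 98.3% to 99.4%, follows from the threshold that chose them. They held 98.9% to 99.5% of S100a9, 98.7% to 99.5% of Camp, 98.8% to 99.6% of Ngp and 98.1% to 99.4% of Ltf in each library. Elane was held at 91.2% to 95.2%. The other 3 members were less confined, with Lcn2 at 68.6%, 95.5%, 98.2% and 89.0%, Prtn3 at 69.8%, 51.7%, 82.3% and 58.5%, and Mpo at 64.5%, 53.5%, 77.8% and 80.6%.

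Part of the remaining primary granule mRNA lay in a few precursor cells with little S100a8. Of cells under 10 S100a8 UMIs, 57 had at least 10 UMIs of Elane, Prtn3 and Mpo together, 42 of them in the precursor-like cluster 34, and they held 72.4% of those UMIs outside the S100a8-high cells. By library this share was 65.9% in control_4d and 16.7% in control_7d, against 86.7% in RA_4d and 22.3% in RA_7d. In these low-S100a8 cells of cluster 34, Prtn3 was at 1796, 354, 2050 and 1178 CPM, Mpo at 916, 52.2, 1398 and 377, and S100a8 at 3.33, 38.5, 48.0 and 12.0. The cluster is mixed below the threshold, since Cpa3, a mast cell and basophil protease, was detected in 20.8% of its 106 low-S100a8 cells and in 1 of its 101 S100a8-high cells.

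S100a8 was also found at low counts across the other cell types, and in RA_4d more than elsewhere. Outside the S100a8-high cells, at least 1 S100a8 UMI was found in 12.5% of cells in control_4d and 15.1% in control_7d, against 55.4% in RA_4d and 7.55% in RA_7d (1.22%, 1.18%, 6.88% and 0.791% after thinning each cell to 1000 UMIs). Mesenchymal-like cells had a UMI in 8.07%, 16.1%, 62.8% and 7.08% of cells at median depths of 34830, 24347, 34867 and 24243 UMIs. The source of these S100a8 UMIs was not tested. The mesenchymal-like cells were deeper than all other cells together (medians of 15243 to 17155 UMIs), so their shares are not compared in direction, and after thinning to 1000 UMIs they were 0.412%, 0.911%, 3.69% and 0.344%. In level, S100a8 in mesenchymal-like cells was at 2.47, 8.599, 29.4 and 3.52 CPM and in endothelial-like cells at 3.56, 7.05, 32.8 and 3.51.

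These low levels were set beside those of the whole library. S100a8 in mesenchymal-like cells was at 0.513%, 0.824%, 0.446% and 0.803% of its level in all kept cells of control_4d, control_7d, RA_4d and RA_7d. S100a9, Camp, Ngp and Ltf lay near the same line in the plot of background levels. Their shares ran from 0.325% (Ngp in RA_4d) to 2.14% (Camp in control_4d). Over all cells under the threshold, 7 of 9 members were at least 2-fold higher in RA_4d than in control_4d, as were 0.352% of 18763 genes, and 0 were lower (0.256% of genes were), the exceptions being Lcn2 and Ltf, the latter at 1.51 against 0.290 CPM. For 3 of the 7 most of these UMIs in RA_4d lay in low-S100a8 cells of cluster 34, which held 1886 Elane, 4144 Prtn3 and 2827 Mpo UMIs, with 248, 983 and 382 elsewhere outside the granulocyte and monocyte clusters. At 7 dpf 0 of 9 were past 2-fold higher (1.44% of genes were) or lower (0.509% of genes were), and the RA to control ratio was 0.487 for S100a8 and 0.476 for S100a9 before the pseudocount.

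**Figure D4:**
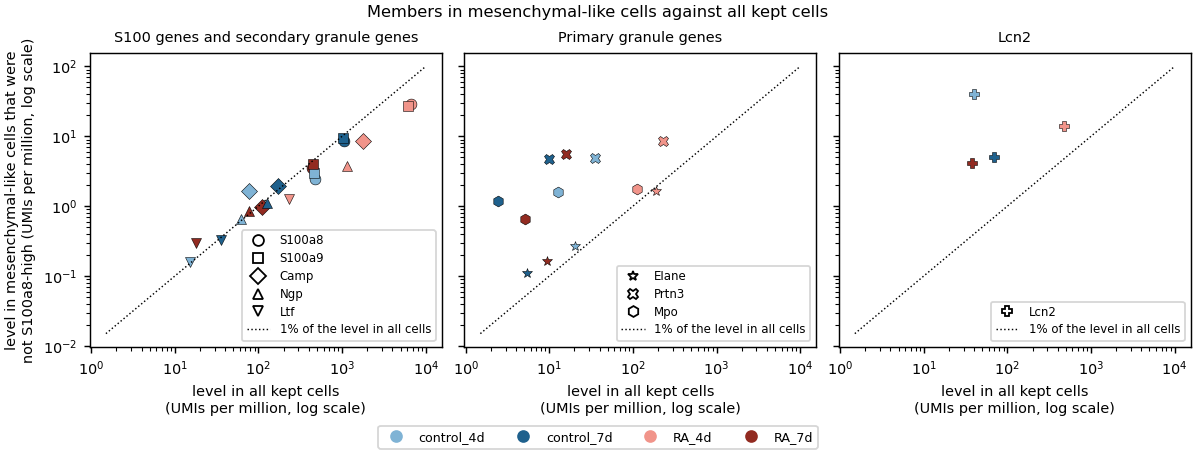
Level of each member in mesenchymal-like cells under the S100a8 threshold (y) against its level in all kept cells (x), in CPM on log scales, coloured by library. The dotted line marks 1% of the whole-library level. The calgranulins and secondary granule genes lie near the line, Prtn3, Mpo and Lcn2 lie above it, and Lcn2 is highest in control_4d (39.9 CPM).

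Prtn3 and Mpo departed from that line. In mesenchymal-like cells Prtn3 was at 4.96 CPM in control_4d and 4.73 in control_7d, against 8.55 in RA_4d and 5.62 in RA_7d, which is 14.1%, 47.3%, 3.74% and 35.8% of its level in all kept cells. Per S100a9 UMI, mesenchymal-like cells had 31.05 (26.98 to 35.6), 97.2 (85.6 to 110), 10.2 (9.03 to 11.5) and 66.7 (60.6 to 73.4) times as much Prtn3 as the S100a8-high cells of the same library. Its level in endothelial-like cells was similar, at 3.89, 5.70, 8.45 and 7.27, and in T or NK-like cells it was 1.73, 2.25, 5.10 and 1.05. Mpo in mesenchymal-like cells was at 1.61, 1.18, 1.73 and 0.666, or 30.3, 95.1, 4.47 and 17.5 times the ratio in S100a8-high cells. Elane, whose gene neighbours Prtn3, was at 0.272, 0.110, 1.67 and 0.167 CPM, and for it that factor was 2.06 to 2.25. Unlike Prtn3, Mpo was lower in endothelial-like than in mesenchymal-like cells in each library but RA_4d, at 0.438, 0.0750, 1.77 and 0.182 CPM. These values rest on few UMIs, since the endothelial-like clusters 5, 6, 25 and 32 held 16, 13, 3 and 2 Mpo UMIs over all libraries.

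Lcn2 also lay above the line in mesenchymal-like cells, and there RA was below control at 4 dpf. In mesenchymal-like cells under the threshold, Lcn2 was at 39.9 CPM in control_4d and 5.05 in control_7d, against 13.9 in RA_4d and 4.19 in RA_7d. Per S100a9 UMI this was 221 times the S100a8-high cells' value in control_4d and 8.16, 6.64 and 13.6 times in control_7d, RA_4d and RA_7d. In all kept cells, by contrast, RA stood at 11.8 times control at 4 dpf. Endothelial-like cells alone had the opposite direction at 4 dpf, with Lcn2 at 0.931 CPM in control_4d and 3.70 in RA_4d. In mesenchymal-like and endothelial-like cells together, the RA to control ratio at 4 dpf was 0.389 for Lcn2 and 10.9 for S100a8, and Lcn2 was the 1 member 2-fold lower (0.566% of genes were). At 7 dpf S100a8 and S100a9 were 2-fold lower in these cells (0.608% of genes were).

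A small number of mesenchymal-like cells held most of this Lcn2 in control callus. In control_4d 206 of 1215 cells had a UMI (17.0%), and 46 cells with at least 10 UMIs held 76.1% of the 1761 UMIs, the highest cell having 137. In RA_4d 172 of 921 cells had a UMI (18.7%), but 7 cells had at least 10, holding 29.2% of 456 UMIs. The shares of cells with a UMI are not compared between the libraries, since they also differed in cluster 0, which had few Lcn2 UMIs, with 5.88% of cells in control_4d and 12.0% in RA_4d at median depths of 45596.5 and 43181 UMIs. In control_7d and RA_7d 3.26% and 4.47% of cells had a UMI, and 8 cells in each had at least 10.

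By cluster, Lcn2 was highest in control_4d in the mesenchymal-like clusters 9 (led by Saa3 and Cxcl14), 10 (led by Kera, Fmod and Tnmd) and 3 (led by Pi16 and Clec3b). Cluster 9 was at 104 CPM in control_4d and 8.92 in control_7d, against 32.1 in RA_4d and 11.7 in RA_7d. Cluster 10 was at 89.7, 35.2, 35.3 and 4.98, and cluster 3 at 89.5, 14.7, 28.7 and 5.18. Cluster 0, which held the most mesenchymal-like cells and was led by Kif26b, Col8a1 and Tnn, was at 3.24, 1.07, 3.19 and 0.891. In each of clusters 3, 9 and 10 control_4d was the highest library. Lymphatic endothelial-like cells (cluster 27, led by Ccl21a and Mmrn1) stood at 220, 16.4, 136 and 64.4, above these clusters in each library but control_7d, from 38, 113, 38 and 164 cells.

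**Figure D5:**
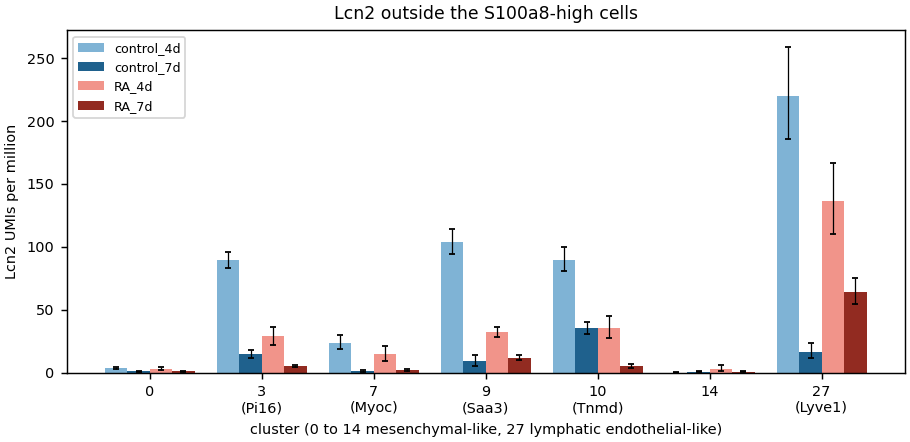
Lcn2 level (CPM) outside the S100a8-high cells in 6 mesenchymal-like clusters and in the lymphatic endothelial-like cluster 27, by library, with exact 95% counting intervals. In clusters 3, 9, 10 and 27 the bar of control_4d is the highest, and in clusters 0 and 14 all libraries are below 5 CPM.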

How the data were processed

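The authors loaded 10000 cells per library on the 10x Chromium 3′ platform and, per the labels and the study's methods, made UMI counts with Cell Ranger 7.0.1 on mm10. The values are raw counts, 1 matrix per library, as deposited. Kept cells had at least 1000 UMIs, at least 500 genes and at most 15% mitochondrial UMIs, which left 7135, 9344, 5559 and 9579 cells with 167251912, 175382159, 129557346 and 181108333 UMIs in control_4d, control_7d, RA_4d and RA_7d. The members, lists and tests were chosen with earlier results of these data known. The genes named are the 9 members, from each pathway list any past 2-fold and the 4 with the highest level, the 3 genes most like S100a8, Ngp and Elane (log2 level with a pseudocount of 10), and the leading genes of clusters. Tlr4 and genes that mark other cells (Hba-a1, Jchain, Igkc, Col1a1, Cpa3 and the endothelial, osteoclast and monocyte markers) were named after their values were seen.

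Levels (CPM) are UMIs summed over the cells of a library and scaled to the total UMIs of those cells. Genes entered a fold count when the pair of libraries held 50 or more of their UMIs, with a pseudocount of 1 CPM. Cells were clustered with scanpy 1.11.5 (Leiden, 1991 variable genes after removing the members and mitochondrial genes, 30 components) into 41 clusters, and naming thresholds were set after the clusters were seen. Scrublet called 934 doublets (2.95%), 2 of them in RA_4d, where the caller did not work. Doublets were kept in the main values and removed in an alternative. Shares have Clopper-Pearson intervals, levels exact Poisson intervals and ratios exact conditional intervals. Free RNA was not corrected. The fold ratios and their intervals were checked on simulated library sums, and the other steps were not checked in this way. The simulated sums were Poisson counts, the model that the intervals assume. The check therefore could not show how intervals behave when few cells hold most UMIs of a gene. Python 3.11.15, numpy 2.4.6, scipy 1.17.1 and pandas 2.3.3 were used. The number of value columns left unused was 0.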

Additional observations from a re-analysis of the deposited data

Results flagged for a closer look

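Several results changed direction between 4 and 7 dpf, and the difference between the times was not tested because each condition is 1 library. The RA to control ratio of the share of S100a8-high cells was 3.94 at 4 dpf and 0.398 at 7 dpf. In all kept cells the ratio was 13.7 and 0.420 for S100a8, 13.3 and 0.437 for S100a9, 23.1 and 0.661 for Camp, 18.5 and 0.607 for Ngp, 15.01 and 0.499 for Ltf, and 11.8 and 0.549 for Lcn2. The ratios of Elane, Prtn3 and Mpo were above 1 at both times, with most of the Elane UMIs of RA_7d in 6 cells.

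Among the barcodes that the cell filter left out, 5.04% of those in RA_4d (17 of 337) had at least 10 S100a8 UMIs, against 4 of 495 in control_4d, 2 of 862 in control_7d and 5 of 727 in RA_7d.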

How the results depend on the processing

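No paired analysis was possible because each condition has 1 library, and no library could be left out of a comparison. The share ratio of S100a8-high cells moved under 2 of 20 alternatives, to 6.19 at 4 dpf under the study's cell filter and to 0.548 at 7 dpf over haematopoietic cells. Here a level moved when it left its counting interval. Levels in all kept cells moved under 49 of 90 alternatives with none reversed, those in other cells under 26 of 108, and those in S100a8-high cells under 76 of 126. A further 6 of these 126 reversed, all at 7 dpf: Ltf 0.991 and Lcn2 0.965 under the study's filter, Ngp 0.922, Ltf 0.821 and Lcn2 0.824 as means over cells, and Ltf 0.964 without cluster 37 (an alternative chosen after seeing the data). In other cells Lcn2 at 7 dpf reversed to 0.892 in mesenchymal-like and endothelial-like cells alone, where 1 member at 4 dpf (Lcn2, with 0.566% of genes) and 2 at 7 dpf (S100a8 and S100a9, with 0.608% of genes) were 2-fold lower. Members 2-fold higher in S100a8-high cells at 4 dpf fell to 1 under the study's filter. Genes 2-fold higher and lower numbered 132 and 55 (all kept cells, 4 dpf), 282 and 109 (7 dpf), 247 and 550 (S100a8-high cells, 4 dpf), 171 and 238 (7 dpf), 66 and 48 (other cells, 4 dpf) and 280 and 99 (7 dpf). With a pseudocount of 10 they were 41 and 17, 77 and 21, 49 and 220, 83 and 106, 17 and 14, and 77 and 17. With at least 10 UMIs, S100a8-high cells gave 501 and 1012 at 4 dpf and 445 and 715 at 7 dpf, and with TMM scaling 415 and 334 at 4 dpf. The Mpo levels of clusters 26 and 31 in control_4d and RA_7d rest on 0 or 1 UMI, and Elane had 0 UMIs in cluster 31 of both. The part of depth in these counts was not tested.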
